A study of Mus musculus with 4 samples.

Results

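The genes described here encode the cell-surface receptors for interferons and the Janus kinases that carry their signal. They are the interferon-gamma receptor subunits Ifngr1 and Ifngr2, the type I interferon receptor subunits Ifnar1 and Ifnar2, and the kinases Jak1, Jak2, Jak3 and Tyk2. They were chosen by gene symbol, with no measured value in the rule, and are 8 of the 24421 rows of the expression table. RNA came from islets of C57BL/6 mice of wild-type genotype, the hormone-secreting cell clusters of the pancreas that consist mostly of insulin-producing beta cells. All 4 islet samples recovered overnight and were kept in RPMI medium with 11 mM glucose. The 2 control samples are labelled untreated, and the other 2 received the treatment labelled cytoEV on each day over 48 h. By the title of the series, these are small extracellular vesicles of pro-inflammatory beta cells. In the table the control columns are called Ctl_EV, so whether control islets received other vesicles is not settled here.

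Interferon-gamma binds a receptor built of IFNGR1, which carries JAK1, and IFNGR2, which carries JAK2, and the activated kinases phosphorylate transcription factors of the STAT family. Type I interferons bind IFNAR1, which carries TYK2, and IFNAR2, which carries JAK1, and act through a complex that holds STAT2 and IRF9. JAK3 serves no interferon receptor: it pairs with the common gamma chain of interleukin receptors and is known mainly from blood cells. In beta cells this pathway is known for the inflammatory response to cytokines in autoimmune diabetes.

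The libraries held between 129726756 and 156183968 reads, recovered as whole reads from the deposited CPM values (reads scaled to 1000000 per library). Transcripts of Ins1 and Ins2 took between 17.5% and 20.7% of the reads, and the alpha cell hormone gene Gcg was at 19860 CPM or more in every library, as an islet label requires. The labels do not tie the samples of a group to different mice or cultures, so a p-value here reflects the spread among these libraries only, which may be technical. All 8 genes had at least 1 CPM in every library, so none depended on a filter to be tested.

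The promoters are shown as a description of sequence, and no link between their motifs and expression was tested. Windows of 300 bases, from 250 before to 50 after the RefSeq gene start (GRCm38.p6), were available for all 8 genes. They were searched on both strands for the gamma-activated sequence core TTCNNNGAA, which reads alike on both strands, and the interferon-stimulated response element core GAAANNGAAA. The former had a match in 2 of the 8 windows, those of Ifnar1 and Ifnar2, against 8.30% of all 32851 promoter windows of that length. The latter had none, against 3.44% of all windows. The 260 bases from 250 before the start to 10 after it are printed 5′ to 3′ for Ifngr2 (chr16:91546809-91547068) and Jak3 (chr8:71676133-71676392), the 2 genes that passed the test below, and for Ifnar1 (chr16:91484965-91485224) and Ifnar2 (chr16:91372533-91372792), which hold the match in capitals. All lie on the plus strand. A match is a string of letters only, and its absence says nothing about factors that bind elsewhere.
Ifngr2: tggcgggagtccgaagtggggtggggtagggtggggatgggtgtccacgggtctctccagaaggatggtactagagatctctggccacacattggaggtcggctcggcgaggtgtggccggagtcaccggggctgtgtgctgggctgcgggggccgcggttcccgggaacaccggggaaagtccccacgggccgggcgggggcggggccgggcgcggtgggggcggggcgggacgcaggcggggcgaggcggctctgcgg
Jak3: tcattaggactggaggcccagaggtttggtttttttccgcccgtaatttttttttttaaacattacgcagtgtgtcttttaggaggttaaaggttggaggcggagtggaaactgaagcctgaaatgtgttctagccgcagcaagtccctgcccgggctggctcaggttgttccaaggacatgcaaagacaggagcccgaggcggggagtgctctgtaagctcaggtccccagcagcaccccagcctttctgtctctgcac
Ifnar1: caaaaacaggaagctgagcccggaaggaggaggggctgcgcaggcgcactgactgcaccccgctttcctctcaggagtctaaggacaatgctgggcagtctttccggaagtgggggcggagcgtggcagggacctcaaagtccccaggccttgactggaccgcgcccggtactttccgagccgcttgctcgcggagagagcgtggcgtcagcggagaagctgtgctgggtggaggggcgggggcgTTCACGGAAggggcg
Ifnar2: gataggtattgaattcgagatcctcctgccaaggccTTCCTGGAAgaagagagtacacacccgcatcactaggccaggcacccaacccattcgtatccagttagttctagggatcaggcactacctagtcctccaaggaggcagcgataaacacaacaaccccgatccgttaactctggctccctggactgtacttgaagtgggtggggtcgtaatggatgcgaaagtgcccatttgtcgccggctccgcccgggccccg

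Of the 8 genes, Ifngr2 was higher and Jak3 lower in cytoEV islets, and the other 6 did not pass the test. The receptor genes are described before the kinases. The test was limma on log2(CPM + 1) over the 12780 genes that reached 1 CPM in 2 or more libraries, with Benjamini-Hochberg adjustment and a threshold of 0.05. It called 3.16% of all tested genes higher and 3.51% lower, shares at which fewer than 1 of 8 genes would be called each way, so the count of 1 and 1 is no result about the genes as a set. EdgeR on the recovered reads called 2.52% higher and 3.15% lower, DESeq2 5.83% and 6.61%, and both called the same 2 members. The median log2 change was 0.08 over the 8 genes and 0.01 over all tested genes. The groups did not overlap for 3 members that were higher and 2 that were lower, against 27.8% and 26.1% of all tested genes.

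**Figure D1:**
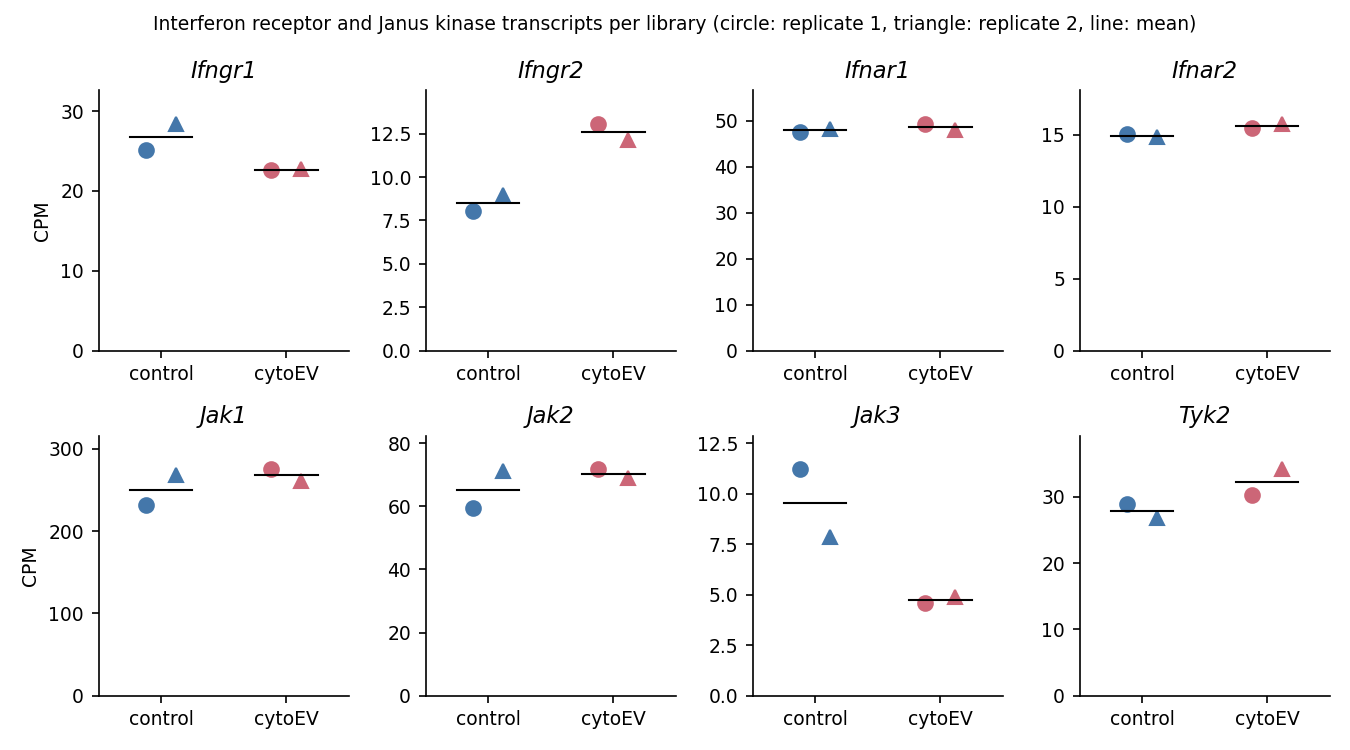
CPM of each gene (y axes from 0, a scale of its own per gene) in the 2 control (blue) and 2 cytoEV (red) libraries, with circles for replicate 1, triangles for replicate 2 and a line at the group mean. The cytoEV points of Ifngr2 lie above and those of Jak3 below all control points, while the groups overlap for Ifnar1, Jak1 and Jak2.

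Ifngr2, the signal-transducing subunit of the interferon-gamma receptor, is on chromosome 16, 91547072 to 91565623, plus strand (GRCm38). Its level was 8.06 and 8.96 CPM in the control libraries and 13.0 and 12.1 CPM in the cytoEV libraries, from between 1046 and 1798 reads. Both cytoEV libraries were above both control libraries. Group means were 8.51 ± 0.637 CPM in control and 12.6 ± 0.650 CPM in cytoEV libraries (SD over 2), a ratio of 1.48. The log2 change was 0.51 ± 0.12 (SE), with a 95% interval from 0.25 to 0.78 and a limma adjusted p of 0.0347. It did not pass in limma when cytoEV replicate 1 was left out (adjusted p = 0.392), when cytoEV replicate 2 was (0.165), or with no filter on low values (0.117). In bulk tissue, a change in the number of cells of a type and a change in RNA per cell cannot be told apart.

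Ifngr1, the subunit that binds interferon-gamma, is on chromosome 10, 19591949 to 19610229, plus strand. It stood at 25.1 and 28.3 CPM in the control libraries and at 22.6 and 22.7 CPM in the cytoEV libraries. The cytoEV values were below both control values, and closer to control replicate 1 than the control libraries were to each other. Group means were 26.7 ± 2.29 and 22.7 ± 0.106 CPM (SD over 2 libraries). The log2 change was −0.22, with an interval from −0.46 to 0.02 and a limma adjusted p of 0.241, and with 1 library left out it ranged from −0.31 to −0.14. It passed without control replicate 1 (limma adjusted p = 0.0229) and not without control replicate 2 (0.220), cytoEV replicate 1 (0.991) or cytoEV replicate 2 (0.843).

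The estimated changes of the interferon-gamma receptor subunit genes thus had opposite signs, although that of Ifngr1 did not pass the test. The ratio of the reads of these genes within a library gives their balance without any scaling. Per read of Ifngr2 there were 3.11 and 3.16 reads of Ifngr1 in control and 1.73 and 1.88 in cytoEV libraries. The control ratios were close to each other and both cytoEV ratios were well below them. The log2 ratio went from 1.65 ± 0.02 to 0.85 ± 0.08 (SD over 2 libraries), a difference of −0.80, which leaves the ratio at 0.576 of its control value. With 2 libraries against 2 the exact two-sided permutation test cannot go below p = 0.333, which is the value it gave. In all, 9 ratios were computed, and adjusted over them this exact p was 0.6.

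Neither type I receptor gene passed the test. Ifnar1 (chromosome 16 from 91485238 to 91507441, plus strand), whose product carries TYK2, was at 47.6 and 48.2 CPM in control and 49.2 and 47.9 CPM in cytoEV libraries. The groups overlapped. Its log2 change was 0.02, with an interval from −0.18 to 0.22 and a limma adjusted p of 0.927, and with each library centred on its median it was −0.01.

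Ifnar2 (chromosome 16 from 91372783 to 91405589, plus strand), which binds type I interferon with high affinity, was at 15.1 and 14.8 CPM in control and 15.5 and 15.7 CPM in cytoEV libraries. The groups did not overlap, and the gap between them was smaller than that for Ifngr2. The log2 change of 0.06 had an interval from −0.18 to 0.29 and a limma adjusted p of 0.790. For both type I subunits the interval leaves room for changes of up to 1.22-fold upward and down to 0.880-fold on the log2(CPM + 1) scale. The read ratio of Ifnar1 to Ifnar2 was 3.15 and 3.25 in control and 3.18 and 3.05 in cytoEV libraries, and these overlapped (exact two-sided permutation p = 0.667). Of the 50-base stretches of Ifnar2, 7.89% also occur in Gm21970, an overlapping gene model that is not analysed here.

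Jak1, the kinase shared by both interferon receptors, was the most abundant member. Its locus is chromosome 4, 101152367 to 101265282, minus strand. Its level was 231.3 and 268.2 CPM in control and 274.9 and 260.6 CPM in cytoEV libraries. Control replicate 1 was the low library, and control replicate 2 lay between the cytoEV libraries. The log2 change was 0.10, with an interval from −0.11 to 0.32 and a limma adjusted p of 0.560.

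Jak2, the partner of IFNGR2 and of the growth hormone and prolactin receptors, showed the same order of libraries. Its locus is chromosome 19, 29251828 to 29313080, plus strand. It stood at 59.4 and 71.0 CPM in control and at 71.7 and 69.0 CPM in cytoEV libraries. The log2 change was 0.11, with an interval from −0.13 to 0.35 and a limma adjusted p of 0.572. Without control replicate 2 Jak1 and Jak2 passed upward (limma adjusted p = 0.0167 and 0.0183), and without control replicate 1 their log2 changes were −0.0028 and −0.0146. The sign of both thus rested on which control library was kept.

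Within each library the ratio of Jak1 to Jak2 reads was 3.89 and 3.78 in control and 3.84 and 3.78 in cytoEV libraries. All 4 values lay within 3.78 to 3.89 although each kinase alone varied more, and the group difference of −0.01 on the log2 scale was smaller than the SD of either group (exact two-sided permutation p = 1).

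Tyk2, the partner of IFNAR1, is on chromosome 9, 21104068 to 21131243, minus strand. It was at 28.9 and 26.7 CPM in control and 30.3 and 34.1 CPM in cytoEV libraries. The cytoEV values were above both control values by a margin smaller than the difference between the cytoEV libraries. The log2 change was 0.20, with an interval from −0.04 to 0.45 and a limma adjusted p of 0.289, and it ranged from 0.12 without cytoEV replicate 2 to 0.29 without cytoEV replicate 1. An antisense gene, 1700084C06Rik, overlaps Tyk2 and is not analysed here. The sources used here do not say if reads were counted by strand. If they were not, reads of the 2 genes cannot be told apart. The ratios of Jak1 and of Jak2 to Tyk2 overlapped between the groups (exact two-sided permutation p = 0.667 each).

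Of the 8 genes, Jak3 had the log2 change farthest from 0. Its locus is chromosome 8, 71676296 to 71690575, plus strand. Its level was 11.2 and 7.86 CPM in the control libraries, from 1453 and 1227 reads, and 4.57 and 4.86 CPM in the cytoEV libraries, from 630 and 662 reads. The control libraries differed from each other, and both were above the cytoEV libraries. Group means were 9.53 ± 2.36 CPM in control and 4.71 ± 0.210 CPM in cytoEV libraries (SD over 2), a ratio of 0.495. The log2 change was −0.86 ± 0.16 (SE), with an interval from −1.23 to −0.50 and a limma adjusted p of 0.0155. The call was lost with no filter on low values (adjusted p = 0.115), and a pseudocount of 5 gave a log2 change of −0.57. Of its 50-base stretches 6.93% occur in other genes, mainly the overlapping Insl3, which had 0 reads in every library. Insl3 lies within Jak3 on the same strand, and how reads of both were assigned is not given here. The 0 reads of Insl3 thus cannot show that Jak3 holds none of its reads.

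Since JAK3 is known from blood cells, markers of those cells are given beside this change. The summed level of 10 macrophage markers was 313.9 and 310.3 CPM in control and 307.7 and 317.1 CPM in cytoEV libraries, and 1 of them (Cx3cr1) was higher and 1 (Cd14) lower in limma. Both calls were lost with no filter on low values (limma adjusted p = 0.0673 and 0.0975), and that of Cd14 also without either cytoEV library (0.0892 and 0.0736). Ptprc, the general leukocyte marker, was at 6.95 and 7.86 CPM in control and 8.76 and 8.87 CPM in cytoEV libraries (limma adjusted p = 0.288). Of 12 lymphocyte markers, 6 had 0 reads in all libraries, among them Cd3e, Cd3d, Cd3g and Ms4a1, which allows each at most 0.0231 CPM by counting error. The summed lymphocyte level was 8.51 and 8.91 CPM in control and 9.50 and 9.88 CPM in cytoEV libraries, of which Cd79a, called higher, is part. The Cd79a call was lost with no filter and without cytoEV replicate 2 (limma adjusted p = 0.0891 and 0.0725).

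The macrophage sums overlapped between the groups, but single markers went both ways. Lyz2, the largest part, was at 156 and 175 CPM in control and 142 and 142 CPM in cytoEV libraries. C1qa was at 51.0 and 39.7 CPM in control and 59.5 and 63.4 CPM in cytoEV libraries. Neither passed the test (limma adjusted p = 0.190 and 0.0733). The lymphocyte sums were higher in both cytoEV libraries with Cd79a. Without it, a choice made after the values were seen, they were 4.99 and 5.88 CPM in control and 3.95 and 3.82 CPM in cytoEV libraries. They were thus lower in both, the direction of Jak3, but most of each sum was Il7r alone. Il7r was at 3.67 and 4.48 CPM in control and 2.88 and 2.60 CPM in cytoEV libraries (limma adjusted p = 0.0930). The part of lymphocytes in the Jak3 result was not tested. Jak3 had 1.61 and 0.999 reads per read of Ptprc in control and 0.522 and 0.548 in cytoEV libraries. Against Il2rg, the common gamma chain with which its product pairs, it had 6.63 and 4.28 in control and 2.06 and 2.18 in cytoEV libraries. Il2rg itself was at 1.69 and 1.84 CPM in control and 2.22 and 2.23 CPM in cytoEV libraries (limma adjusted p = 0.317). The cytoEV ratios lay below the control ratios in both pairs, which were chosen after their values were seen (exact two-sided permutation p = 0.333, the smallest possible).

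Of 5 beta cell markers 1 was called higher and 0 lower, and of 5 alpha and 3 delta cell markers 0 were called either way. The sums of beta and of delta markers overlapped between the groups. Alpha markers summed to 20930 and 22336 CPM in control and 23557 and 23249 CPM in cytoEV libraries. The endothelial, stellate, acinar, ductal and Schwann cell lists moved in the direction of Jak3. The sum of 7 endothelial markers was 50.6 and 51.7 CPM in control and 37.9 and 40.1 CPM in cytoEV libraries, with 3 called lower. The 5 stellate cell markers summed to 313.4 and 257.9 CPM against 212.4 and 231.2 CPM, with 2 called lower. Acinar markers had 3 of 4 tested lower, and ductal and Schwann cell markers 1 of 2 and 1 of 4. The part of these cells in the Jak3 result was not tested.

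**Figure D2:**
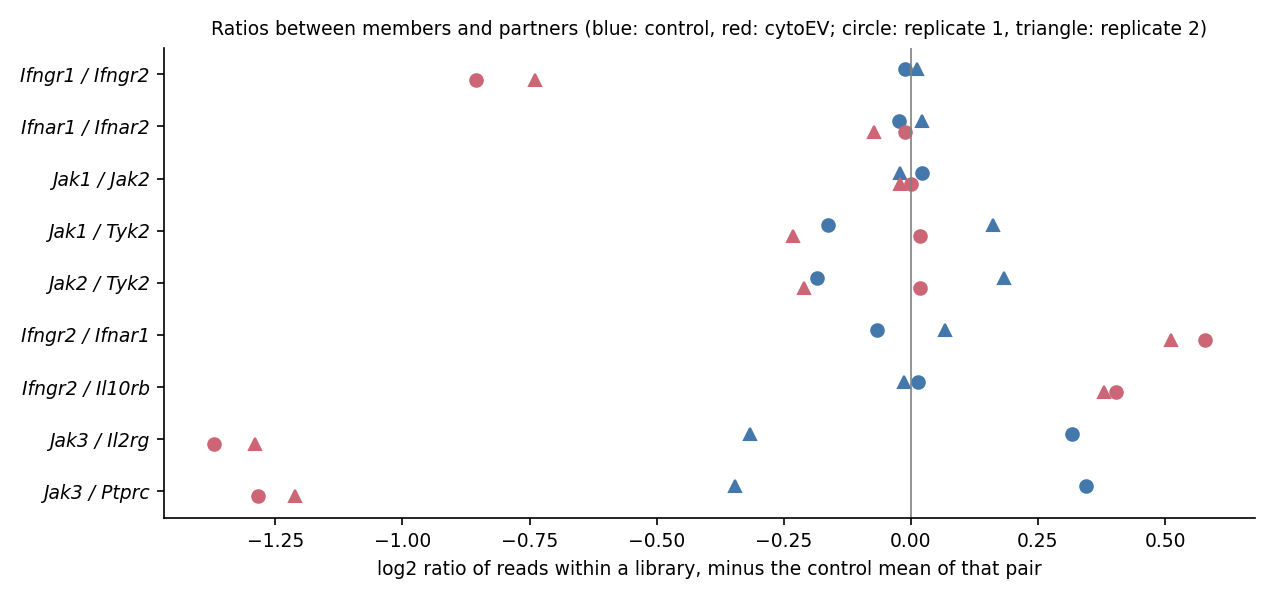
Log2 ratio of reads of gene pairs within each library (x axis, minus the control mean of the pair) for control (blue) and cytoEV (red) libraries, circles for replicate 1 and triangles for replicate 2. The cytoEV points of Ifngr1 / Ifngr2 lie 0.80 below the control mean on average, those of Jak3 / Il2rg and Jak3 / Ptprc 1.33 and 1.25 below, and the ratios among Jak1, Jak2 and Tyk2 overlap.

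Levels can be compared between genes only per length, and were expressed as RPKM over the union of annotated exons (GENCODE M21). In control islets the mean RPKM was 34.6 for Jak1, 13.0 for Jak2, 9.38 for Ifngr1, 8.06 for Ifnar1, 4.49 for Ifnar2, 4.05 for Tyk2, 2.26 for Ifngr2 and 1.78 for Jak3. In cytoEV islets it was 37.1, 14.0, 7.96, 8.17, 4.68, 4.69, 3.34 and 0.881 in that sequence of genes. Ifngr1 was thus above Ifnar1 in both control libraries and below it in both cytoEV libraries. Tyk2 and Ifnar2 were separate in control libraries and overlapped in cytoEV libraries. This order depends on the length used: with the longest transcript, Ifngr1 was below Ifnar1 in control replicate 1 already (11.9 and 12.2 RPKM), Tyk2 was above Ifnar2 (5.76 and 4.91 RPKM) and Jak3 above Ifngr2 (2.35 and 2.30 RPKM) in control islets.

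As shares of the 4 kinases per length, Jak1 made up between 63.9% and 66.1% and Jak2 between 23.6% and 25.0% over the 4 libraries. Jak3 made up 4.18% and 2.59% in control and 1.48% and 1.63% in cytoEV libraries. Among the 4 receptor subunits, Ifngr2 made up 9.11% and 9.56% in control and 14.2% and 13.4% in cytoEV libraries, and was the least abundant subunit in every library. Ifngr1 went from 37.5% and 40.0% to 32.6% and 33.3%.

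Upstream of the receptors, the interferon genes themselves were not detectable in most cases. Of 21 interferon ligand genes, 17 had 0 reads in every library, among them Ifng, which at 3 reads allows at most between 0.0192 and 0.0231 CPM. The highest count of any ligand gene in any library was 6 reads, for Ifnb1 in cytoEV replicate 2 and for Ifna2 in cytoEV replicate 1. None could be tested.

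Downstream are the STAT genes. Of 6 tested genes (STAT factors and Irf9, counted together as STAT genes), 2 were higher and 1 lower, with a median log2 change of 0.27. Over all tested genes limma called 3.16% higher and 3.51% lower. Irf9, the DNA-binding partner of STAT2, was at 19.6 and 20.8 CPM in control and 40.7 and 41.0 CPM in cytoEV libraries. Both cytoEV libraries were far above both control libraries, and the log2 change was 0.98 ± 0.10 (SE, limma adjusted p = 0.000585). Stat2 was at 48.4 and 49.8 CPM in control and 66.2 and 70.9 CPM in cytoEV libraries, and rose by 0.47 on the log2 scale (limma adjusted p = 0.0181). The Stat2 call was lost without either cytoEV library (adjusted p = 0.195 and 0.387) and with no filter (0.0606).

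Stat3, which serves interleukin-6 type receptors, went the other way. It was at 360.1 and 350.3 CPM in control and at 231.4 and 235.7 CPM in cytoEV libraries, and fell by 0.60 on the log2 scale (limma adjusted p = 0.00274). Without either cytoEV library its call was lost (adjusted p = 0.0772 and 0.0513). The groups were far apart compared with the spread within each.

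Of 18 tested inhibitors of the pathway, Usp18 rose, Socs3 fell and 16 did not pass, with a median of −0.01. Over all tested genes limma called 3.16% higher and 3.51% lower, so 1 call each way is no result about the list. Usp18, whose product binds IFNAR2 and dampens type I signalling, was at 18.9 and 20.0 CPM in control and 30.3 and 31.4 CPM in cytoEV libraries. Its log2 change was 0.64 ± 0.10 (SE, limma adjusted p = 0.00667), a call lost without either cytoEV library (adjusted p = 0.0545 and 0.0892). Socs3, an inhibitor of receptors that share the gp130 chain, was at 31.1 and 28.3 CPM in control and 9.05 and 9.68 CPM in cytoEV libraries. It fell by 1.57 ± 0.11 (SE) on the log2 scale (limma adjusted p = 6.62e-05).

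Socs1, the inhibitor best known for blocking Janus kinases after interferon-gamma, was below the filter. Its level was 0.270 and 0.102 CPM in control and 0.217 and 0.213 CPM in cytoEV libraries, and the groups overlapped. Socs7, with the next smallest p in the list, had a log2 change of −0.26 (limma adjusted p = 0.0982), and passed in DESeq2 (0.0339) and without either control library.

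Of 19 other tested receptors that use Janus kinases, limma called 0 at the adjusted threshold (8 at an unadjusted p under 0.05), edgeR 0 and DESeq2 1. Their median log2 change was 0.04. Over all tested genes limma called 3.16% higher and 3.51% lower, so few calls among 19 genes are no result about this list. The smallest p values belonged to Csf2rb2, Il7r and Il4ra, receptor chains for interleukin-3 in mice, interleukin-7 and interleukin-4. Their log2 changes were −0.48, −0.44 and −0.38 with limma adjusted p of 0.0633, 0.0930 and 0.132. Csf2rb2 passed in DESeq2 (adjusted p = 0.0203), in limma with the replicate block (0.0434) and without either control library (0.0176 and 0.0304). Il7r passed without control replicate 1 (limma adjusted p = 0.0190) and Il4ra without control replicate 2 (0.00303), and the log2 change of Il4ra ranged from −0.54 to −0.23 with 1 library left out. Of the other class II cytokine receptors, the family to which the interferon receptors belong, 4 were tested. Limma, edgeR and DESeq2 called 0 of the 4, with 1 (Il20rb) at an unadjusted p under 0.05 in each. At the shares over all tested genes, 0 calls among 4 genes are no result about the family either. Il20rb had a log2 change of −0.43 and Il10rb of 0.16 (limma adjusted p = 0.0876 and 0.421), and Il10ra of −0.09 (limma adjusted p = 0.738).

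Target genes of interferons were mostly higher, as limma called 27 of 28 tested higher and 0 lower, against 3.16% and 3.51% of all tested genes. The median log2 change of the target genes was 2.24. This list was drawn up with earlier results of these data known, so its direction is not independent evidence. Iigp1 and Tgtp1, immunity-related GTPases, and Gbp4, a guanylate-binding protein, had the smallest p, with log2 changes of 8.31, 6.49 and 5.30 (limma adjusted p = 1.92e-09, 1.54e-08 and 6.15e-08). Irf1, an interferon-induced transcription factor gene, changed by 0.81 (limma adjusted p = 0.00114). Tgtp1 has a near-identical copy, so its separate value is uncertain.

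**Figure D3:**
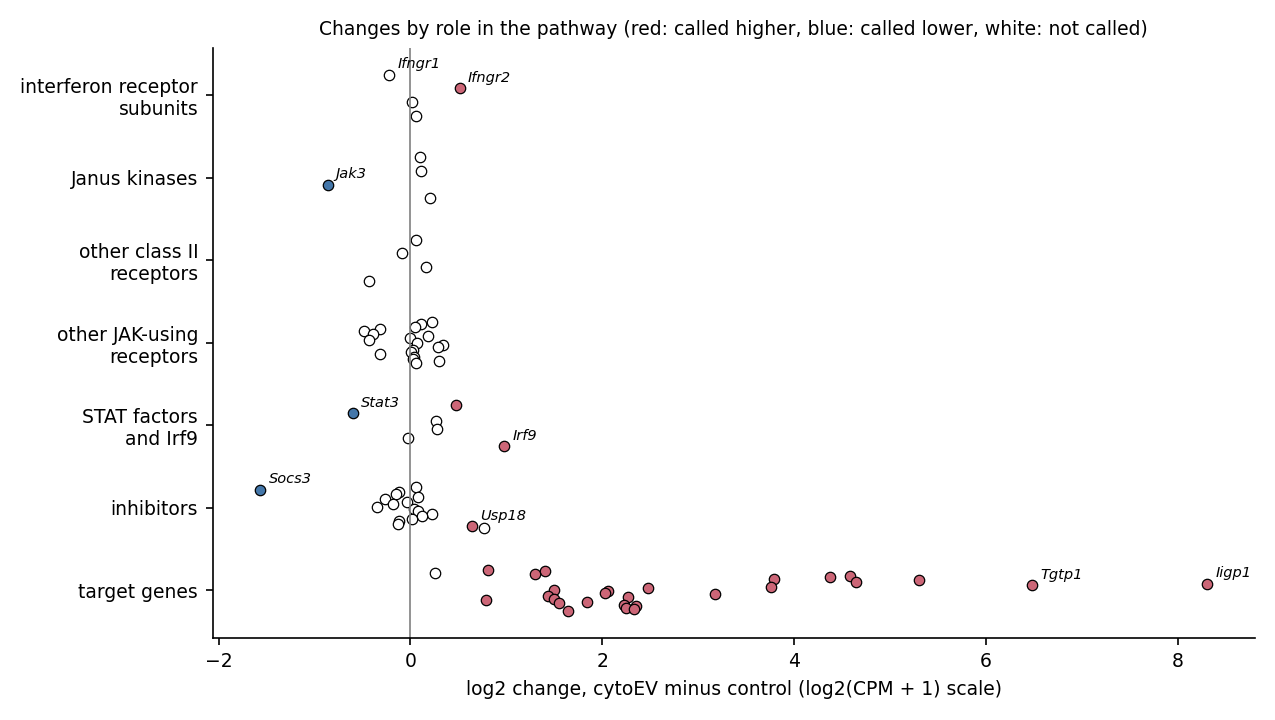
Log2 change between cytoEV and control islets (x axis, log2(CPM + 1) scale) of each tested gene, in rows by role from receptors to target genes, with red for genes called higher, blue for lower and white for not called. Receptors and kinases lie between −0.86 and 0.51, the STAT row reaches 0.98 at Irf9, and the target genes reach 8.31 at Iigp1.

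Ifnar2, Il10rb, Ifnar1 and Ifngr2 lie in that sequence on chromosome 16, on the same strand and within 192.8 kb. Il10rb encodes the chain shared by the receptors of interleukin-10 and of type III interferons. Around these genes, 9 other protein-coding genes within 200 kb of a member were tested (Il10rb, Tmem50b, Dnajc28, Gart, Son, Donson, Atp5o, Cryzl1 and Itsn1). Limma, edgeR and DESeq2 each called 0 of the 9, with 1, 2 and 1 at an unadjusted p under 0.05. Over all tested genes limma called 3.16% higher and 3.51% lower, so 0 calls among 9 genes are no result about the region. Against 0.51 for Ifngr2, set beside them because it was called, the log2 changes of the 9 lay between −0.19 and 0.29. The largest of these values was that of Dnajc28, which passed without control replicate 2 (limma adjusted p = 0.0154), as did Cryzl1 (0.0192).

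Read ratios between Ifngr2 and its neighbours, chosen after the values were seen, separated the groups. Ifngr2 had 0.169 and 0.186 reads per read of Ifnar1 in control and 0.265 and 0.253 in cytoEV libraries. Against Il10rb the ratios were 0.498 and 0.488 in control and 0.652 and 0.641 in cytoEV libraries. The fold differences were 1.46 and 1.31, and each exact two-sided permutation p was 0.333, the smallest possible.

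**Figure D4:**
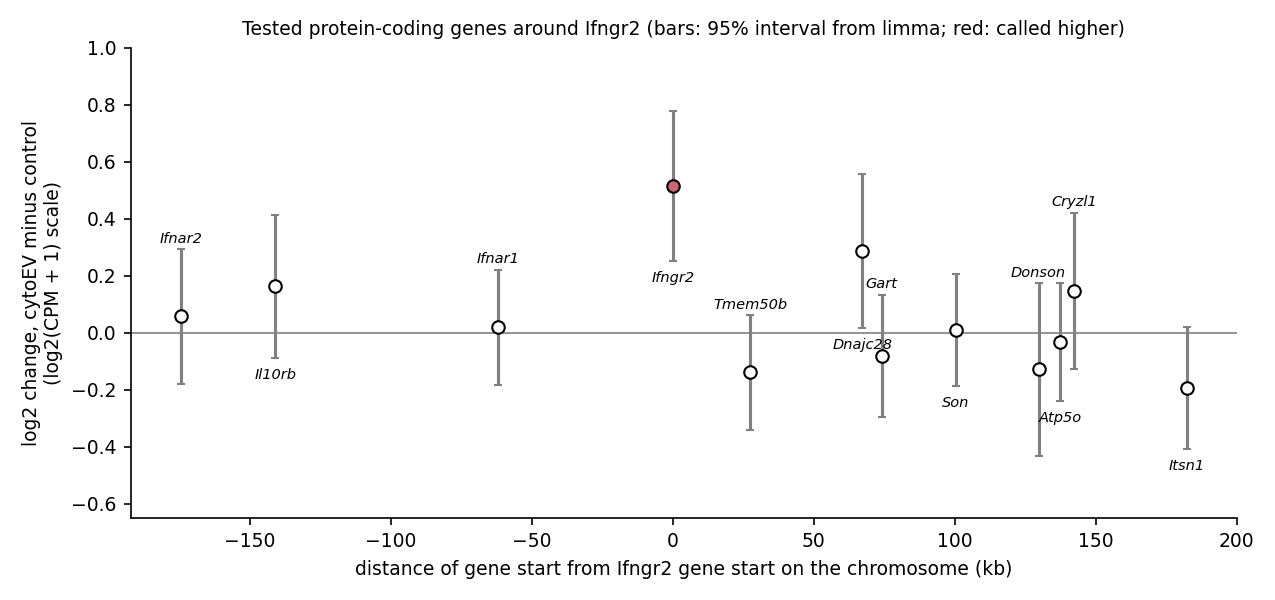
Log2 change between cytoEV and control islets (y axis, log2(CPM + 1) scale) of tested protein-coding genes by the distance of their start from that of Ifngr2 (x axis, kb), with 95% intervals from limma. Ifngr2 (red) at 0.51 is the one called gene, and the others lie between −0.19 and 0.29.

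For the 2 called members, the genes with the most alike pattern over the 4 libraries were found by the Euclidean distance between centred log2(CPM + 1) values. Nearest to Ifngr2 were Trip4, Fbxo32 and Smim19, at distances of 0.026, 0.029 and 0.030 and with log2 changes of 0.51, 0.51 and 0.49. Nearest to Jak3 were Mvd, Col18a1 and Insc, at distances of 0.064, 0.094 and 0.12. Their log2 changes were −0.82, −0.95 and −0.78, and in each of them, as in Jak3, control replicate 1 was the highest library. With 4 libraries, such likeness is a description of these values only.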

How the data were processed

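Poly(A)-selected RNA of 4 islet samples was sequenced (200 ng of total RNA per library, stranded mRNA kit, per the labels' protocols). Per the submitters' processing notes, which give no role or order, the tools were TopHat2 2.0.6, StringTie 2.1.3, R 3.6.1 and edgeR 3.1.1, with the mm10 build. The authors deposited 1 table of CPM values with 24421 rows and a column per library. The control columns were assigned to the untreated samples by name and replicate number. Whole reads were recovered from the CPM values: divided by the CPM worth of 1 read in its library, 100% of nonzero values came within 0.01 of a whole number. They may be estimates that the authors rounded. Strand use in counting is not given here. Of the row names, 27 are plain numbers, tested but not named.

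The test was limma (version 3.58.1, R 4.3.3, trended eBayes) on log2(CPM + 1) for 12780 genes that reached 1 CPM in 2 or more libraries. The model held the group alone, leaving 2 residual degrees of freedom, and p-values were adjusted by Benjamini-Hochberg across those genes. Fold changes on this scale understate those of low genes. Intervals are at 95%. Count tests on the recovered reads served as alternatives, with DESeq2 1.42.0 and the quasi-likelihood test of edgeR 4.0.16 after TMM scaling. EdgeR called 322 genes higher and 402 lower. The fits were also run on simulated counts, in which genes varied independently of each other within a library. That outcome is not reported here and is no support for the calls. Read intervals and limits from counts of 0 (3 reads) cover counting error only.

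The members, the lists and the tests were chosen with earlier results of these data known. Text names the members, up to 3 genes with the smallest p in each pathway list, Socs1, Irf1, Usp18, the tested protein-coding genes within 200 kb of a member and the 3 nearest patterns of each called member. Neighbours outside chromosome 16 are given by counts and by those called, in a departure from that rule. Ptprc, Il2rg, Cx3cr1, Cd14, Cd79a, Lyz2, C1qa, Fdx1l and Gm38431 were named after their values were seen. Some genes of the lists are not reported here. Annotation was GENCODE M21 (GRCm38, also called mm10), and promoter windows were RefSeq's on GRCm38.p6. Tables and figures were made with Python 3.11.15, pandas 2.3.3, scipy 1.17.1 and matplotlib 3.10.9.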

Additional observations from a re-analysis of the deposited data

How the results depend on the processing

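Ifngr2 stayed called higher and Jak3 called lower with pseudocounts of 0.1 and 5, a filter of 5 CPM, quantile normalization, median centring, no intensity trend, robust eBayes, edgeR, DESeq2 and the replicate block. With no filter on low values neither passed (0 members higher, 0 lower), and over all genes 149 were higher and 179 lower. Of the STAT factors and Irf9, 1 was then higher, and it was Irf9, as Stat2 did not pass. The limma counts over all genes were 404 and 449, with a filter of 5 CPM 252 were higher, and DESeq2 called 745 and 845. DESeq2 also called 1 of the other Janus kinase receptors and 3 inhibitors lower. With each library left out in turn, between 215 and 2408 genes were higher and between 249 and 2023 lower, with 0 to 3 members higher and 1 to 2 lower. The lone library of a group was then assumed to vary like the other group. Called higher were 0 to 5 of the other Janus kinase receptors, 1 to 4 STAT genes and 1 to 2 inhibitors, and called lower 0 to 2, 0 to 1 and 1 to 5, and 0 to 1 class II receptors. The read ratio differences ranged from −0.0314 to 0.0120 for Jak1 to Jak2, from −0.269 to 0.0556 for Jak1 to Tyk2 and from −0.281 to 0.0870 for Jak2 to Tyk2, so none had a stable sign. For Ifngr1 to Ifngr2 they ranged from −0.854 to −0.739, for Ifnar1 to Ifnar2 from −0.0727 to −0.0110. Log2 changes near 0 turned: that of Ifnar1 to −0.0086 and that of Son to −0.017 with median centring, and that of Son to −0.0016 in DESeq2. With a library left out, Ifnar1 ranged from −0.00032 to 0.0367, Jak1 from −0.0028 to 0.21, Jak2 from −0.0146 to 0.239, Il10ra from −0.178 to 0.0039, Donson from −0.263 to 0.0052 and Son from −0.0751 to 0.0947. The cause was not tested. Replicate numbers are shared by name only. The deviations of same-numbered libraries had a correlation of −0.22 across genes. With the replicate block, 2 inhibitors were higher and 1 other Janus kinase receptor lower, and the 2 member calls held. With the numbers crossed, added after seeing the data, 1469 genes were higher and 1434 lower, with 3 and 3 other Janus kinase receptors, 2 and 3 inhibitors and, lower, 1 class II receptor.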

Other observations

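Of 32 tested protein-coding neighbours of the kinases, 3 were higher and 2 lower in limma, against 3.16% and 3.51% of all tested genes. Cd274, the gene of the immune checkpoint ligand PD-L1, lies 54375 bases beyond the end of Jak2 and was at 20.8 and 23.5 CPM in control and 74.7 and 68.0 CPM in cytoEV libraries (log2 change 1.65, limma adjusted p = 3.95e-05). Bst2, an antiviral membrane protein gene near Jak3, was at 4.87 and 3.98 CPM in control and 9.04 and 10.1 CPM in cytoEV libraries (log2 change 0.96, limma adjusted p = 0.00359). Icam1, an adhesion molecule gene near Tyk2, was at 1.09 and 1.21 CPM in control and 2.39 and 3.03 CPM in cytoEV libraries (log2 change 0.78, limma adjusted p = 0.0128). Lower were Ak4, an adenylate kinase gene near Jak1, which fell by 2.59, and Unc13a, a vesicle priming gene near Jak3, which fell by 0.70 (limma adjusted p = 7.56e-06 and 0.00444). The calls of Bst2, Icam1 and Unc13a were lost with no filter on low values (adjusted p = 0.0579, 0.0642 and 0.0515).

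Near Tyk2, the gene Fdx1l and the gene model Gm38431 that spans it had values that alternated between libraries. Fdx1l was at 6.51 CPM in control replicate 1 and 6.58 CPM in cytoEV replicate 2, and Gm38431 was at 6.25 CPM in control replicate 2 and 7.37 CPM in cytoEV replicate 1. In the opposite libraries each was at 0.264 CPM or less.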
